A study of Mus musculus with 12 samples.

Results

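The 6 libraries titled KO in an RNA-seq series of mouse regulatory T cells fell into 3 that resembled the other libraries and 3 that did not. The divergent libraries were the 3 of 6 KO libraries, of 12 libraries in all, with the lowest mean Pearson correlation of log2 CPM (read counts scaled to library size) with the other 11. They were KO male 1, KO male 3 and KO female 2, and the 3 typical libraries were KO male 2, KO female 1 and KO female 3. Libraries are named here by their titles, except that 2 libraries share the title number of WT male 2: the later in the title numbering is called WT male 3 here. The labels do not say whether these came from 1 animal. The study sorted singlet T cells that were CD4+, CD25 high and CD127 low from mesenteric lymph nodes of untreated SAMP/YitFC mice, an inbred strain that develops ileitis. Titles and strain labels gave 4 groups of 3 libraries each: male and female SAMP/YitFC-WT, and male and female SAMP/YitFC-ERb-KO, labelled as lacking the estrogen receptor beta that Esr2 encodes. Ages, the deleted part of Esr2, the number of mice behind a library and the use of littermates were not given in the sources used here. If replicate libraries shared animals, the p-values below measure only the spread between libraries, which may be technical.

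Regulatory T cells are CD4 T cells that restrain immune responses. They depend on the transcription factor Foxp3 and keep a high level of the interleukin-2 receptor CD25. Libraries of the kind used here start from polyadenylated RNA of few cells, copy it into full-length cDNA by template switching, amplify it and cut it with a transposase. Reverse transcription, amplification and cutting are known to depend on the length and base composition of the RNA. Utrn, Wnk1 and Akap9 were named with the split as its markers. Utrn encodes utrophin, a cytoskeletal linker related to dystrophin. Wnk1 encodes a kinase that controls chloride cotransport, and Akap9 a scaffold of protein kinase A at the centrosome and Golgi.

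The mean correlations were 0.886 in KO male 3, 0.906 in KO female 2 and 0.913 in KO male 1. KO female 3, the library just outside the choice, had 0.939, and KO male 2 and KO female 1 had 0.943 and 0.945. The 6 WT libraries ranged from 0.928 to 0.943, so the 3 divergent libraries were also below every WT library. The typical libraries resembled each other closely, with a pairwise r of 0.975 to 0.977. The divergent libraries did not resemble each other more than they resembled the typical ones: r was 0.872 to 0.898 among them and 0.886 to 0.925 between the kinds. The choice was the same with Spearman's rho, with WT libraries only, with KO libraries only and, as an alternative added after the data were seen, with genes of at least 10 CPM. With rho, however, WT male 1 at 0.969 was below KO female 2 at 0.971. With genes of at least 10 CPM, KO female 2 had a mean r of 0.937, close to KO male 2 at 0.942. WT male 1, at 0.928, was again below it.

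**Figure D1:**
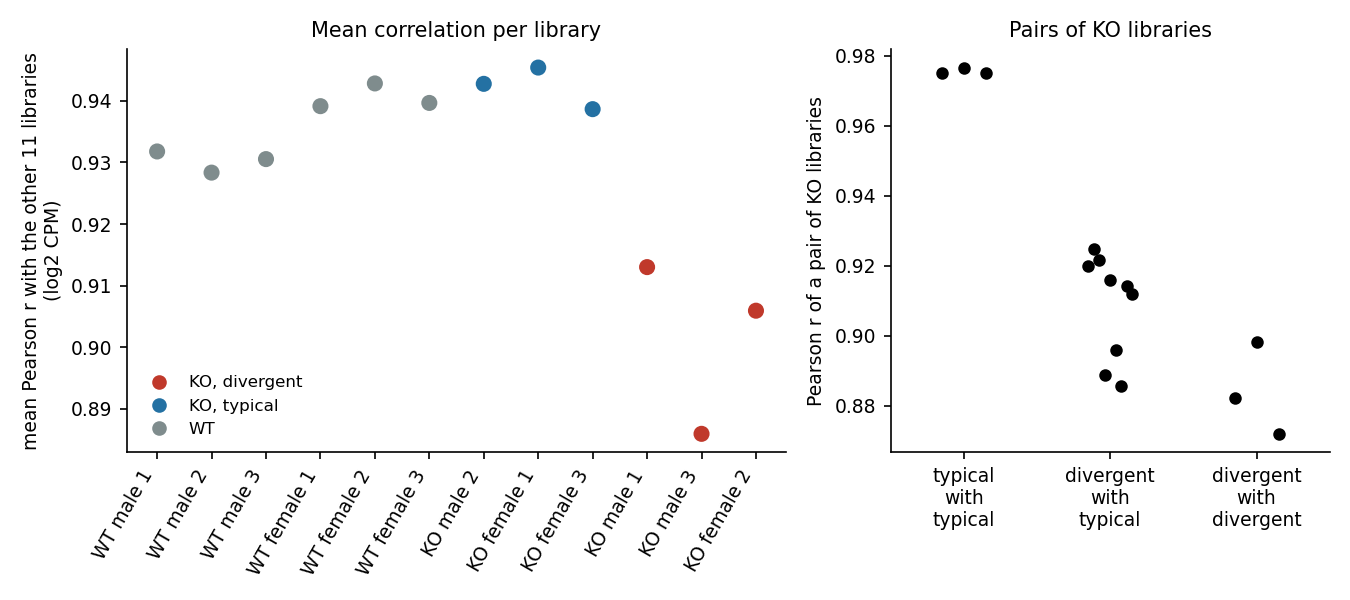
Left, mean Pearson r of log2 CPM of each of the 12 libraries with the other 11, coloured by kind. Right, Pearson r of every pair among the 6 KO libraries. The 3 divergent libraries sit between 0.886 and 0.913, below all others, and pairs of divergent libraries reach no more than 0.898.

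Total counts were 10200506 to 11698721 in the divergent libraries, 11107418 to 14786367 in the typical ones and 13439554 to 16748380 in WT. Of 13692 genes tested, 161, 525 and 558 had no read in KO male 1, KO male 3 and KO female 2, against 50, 13 and 23 in KO male 2, KO female 1 and KO female 3, and 73 to 305 in WT. KO female 3 was as shallow as the divergent libraries and had few such genes. Esr2 had 8, 95 and 94 counts in the divergent libraries, 2, 161 and 128 in the typical ones, and 0, 1, 14, 0, 133 and 159 in WT male 1 to 3 and WT female 1 to 3. The counts of Esr2 did not separate KO from WT titles. In KO libraries, reads outside the deleted part would check nothing. That does not bear on the 0 to 14 counts in WT male 1 to 3 and WT female 1. Y-linked genes and Xist went against the titled sex in WT female 2, KO male 1, KO male 2 and KO female 1. The titles may thus not hold for every library, and whether labels were exchanged was not tested. KO and WT are used here as titled. In the numbering of the titles the divergent libraries were 7, 9 and 11 and the typical ones 8, 10 and 12. The labels do not say what these numbers stand for.

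Examples from either side are 6 genes, shown as 120 bases from the start of the longest coding exon of each, with G and C in capitals. The genes were chosen after their values were seen. The sequences are from GENCODE release M21 on GRCm38. Akap9 and Ikzf2 stand for long or AT-rich transcripts that were higher in the divergent libraries. Pln and Fam196b stand for genes that lie within introns of another gene and were higher. Fasn and Tln1 stand for long GC-rich transcripts that were lower. In order, the stretches lie at chr5:3960112-3960231 (plus strand, exon 7), chr1:69539373-69539492 (minus strand, exon 8), chr10:53343864-53343983 (plus strand, exon 2), chr11:34401960-34402079 (plus strand, exon 2), chr11:120819081-120819200 (minus strand, exon 9) and chr4:43547677-43547796 (minus strand, exon 19).
Akap9: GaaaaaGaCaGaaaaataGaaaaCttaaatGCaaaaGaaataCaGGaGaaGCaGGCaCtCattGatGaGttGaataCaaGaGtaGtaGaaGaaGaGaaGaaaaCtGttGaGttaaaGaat
Ikzf2: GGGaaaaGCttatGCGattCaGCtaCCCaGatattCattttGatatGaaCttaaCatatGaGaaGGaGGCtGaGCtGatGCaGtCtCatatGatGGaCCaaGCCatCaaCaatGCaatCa
Pln: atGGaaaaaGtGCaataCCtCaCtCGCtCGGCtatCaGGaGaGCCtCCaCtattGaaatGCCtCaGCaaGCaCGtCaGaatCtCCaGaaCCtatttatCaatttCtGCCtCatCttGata
Fam196b: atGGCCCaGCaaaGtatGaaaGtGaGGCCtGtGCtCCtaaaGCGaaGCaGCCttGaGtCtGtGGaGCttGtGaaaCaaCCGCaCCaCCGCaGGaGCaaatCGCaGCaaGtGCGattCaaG
Fasn: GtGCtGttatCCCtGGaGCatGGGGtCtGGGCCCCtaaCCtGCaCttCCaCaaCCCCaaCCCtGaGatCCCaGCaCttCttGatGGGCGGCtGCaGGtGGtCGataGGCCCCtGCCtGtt
Tln1: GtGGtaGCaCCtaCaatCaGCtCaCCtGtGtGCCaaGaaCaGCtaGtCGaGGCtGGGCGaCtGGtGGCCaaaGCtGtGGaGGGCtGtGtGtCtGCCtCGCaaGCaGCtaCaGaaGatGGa
G and C made up 31.7% of the Akap9 stretch, 40.8% of that of Ikzf2, 44.2% of that of Pln and 53.3% of that of Fam196b. The stretches of Fasn and Tln1 had 60.8% and 57.5%. Over the whole transcript the values were 44.8%, 40.1%, 38.6%, 47.3%, 57.9% and 57.0%, in the order of the sequences. A stretch need not stand for its transcript: Akap9 was below Pln in the stretch and above it over the transcript. Some GC-rich transcripts were also higher, such as Scarf1 (58.7%) and Zxda (69.2%).

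Across genes the split was broad. The 3 divergent libraries lay above the 3 typical ones without overlap for 2340 genes (17.1%) and below them for 2433 (17.8%). With a mean difference of at least 2-fold as well, 669 genes (4.89%) were higher and 413 (3.02%) lower. Without the filter on low counts the balance turned, with 746 higher and 1365 lower. The median log2 difference over all genes, divergent minus typical, was -0.05. Because the libraries were picked by correlation across these same genes, the counts and differences describe the split and carry no test. The WT libraries took no part in it. Their mean lay nearer to the typical libraries for 435 of the 669 higher genes and 310 of the 413 lower genes. Among all genes without overlap the shares were smaller, with 1340 of 2340 higher and 1515 of 2433 lower genes. Both kinds of KO library nevertheless stood away from WT over the genes with a 2-fold difference. The median log2 deviation from WT over the 669 was 1.05, 1.15 and 0.71 in KO male 1, KO male 3 and KO female 2, and -0.64, -0.39 and -0.67 in KO male 2, KO female 1 and KO female 3. WT libraries against the other WT libraries gave -0.06 to 0.17. Over the 413 it was -0.82, -1.38 and -0.99 in the divergent libraries, 0.55 to 0.60 in the typical ones and -0.17 to 0.30 in WT.

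Part of the divergence was private to a library. Of 10086 genes with a mean of at least 5 CPM, 89 were at least 2-fold below all 11 other libraries in KO male 3, 38 in KO female 2 and 29 in KO male 1. The typical libraries had 4, 0 and 0 such genes. Genes 2-fold above every other library numbered 24 in KO male 3, 5 in KO male 1 and 1 in KO female 2, against 0, 0 and 2 in the typical libraries. In each divergent library the genes below all others outnumbered those above.

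The markers did not separate the kinds evenly. Utrn (chr10:12382188-12869365 on GRCm38, 74 exons, transcript of 12382 bases) had 877, 1085 and 350.1 CPM in KO male 1, KO male 3 and KO female 2, the order kept for divergent libraries below. In the typical libraries KO male 2, KO female 1 and KO female 3, in that order, it had 314, 350.2 and 314 CPM. The lowest, median and highest WT library had 393, 433 and 459 CPM. KO female 2 lay within the typical range and below all WT libraries, so the kinds overlapped, although the mean log2 difference was 1.09. Wnk1 (chr6:119923969-120038672, 28 exons, 11330 bases) had 214, 194 and 90.8 CPM in the divergent and 109, 101 and 97.5 CPM in the typical libraries, with WT at 119 to 153 CPM. KO female 2 was here the lowest of all 12 libraries, and the mean log2 difference was 0.61. Akap9 (chr5:3928054-4081310, 48 exons, 13123 bases) had 172, 201 and 80.2 CPM against 73.8, 72.00 and 78.3 CPM, without overlap, and a log2 difference of 0.91. WT libraries had 101 to 126 CPM, so KO female 2 was above the typical libraries but below every WT library. Without KO female 2, the log2 differences were 1.58 for Utrn, 1.00 for Wnk1 and 1.31 for Akap9. Elevated Utrn and Wnk1 marked KO male 1 and KO male 3 rather than the 3 divergent libraries as a set.

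**Figure D2:**
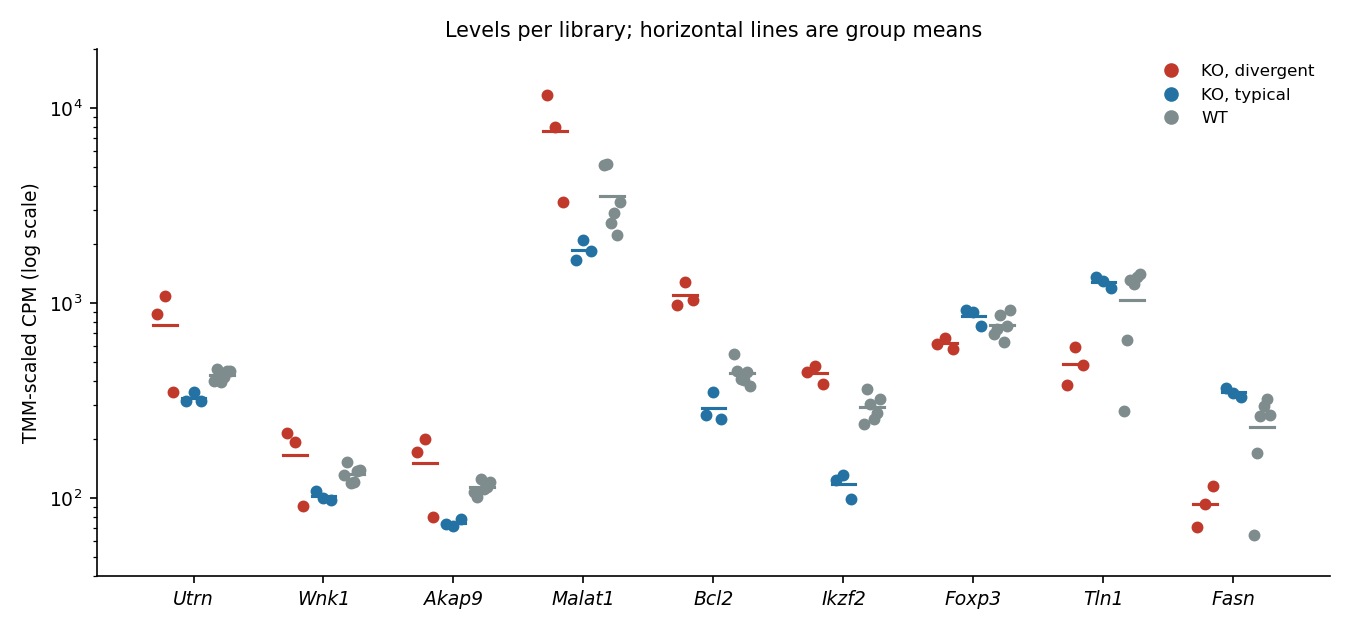
TMM-scaled CPM on a log axis for 9 genes in the 3 divergent, 3 typical and 6 WT libraries; each point is a library and horizontal lines are means. For Utrn the divergent libraries reach from 350.1 to 1085 CPM and meet the typical range, while Bcl2, Ikzf2, Tln1 and Fasn separate the kinds.

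The split followed GC content in 1 direction, and over all genes length in none. A GENCODE M21 transcript was matched to 13232 of the 13692 genes. It was the longest of the gene, with transcripts of the GENCODE basic set and then protein-coding ones taken first. Genes were put into 5 equal bins by a property. In the bin with the lowest GC content (up to 44.3%), the median log2 difference was 0.13, and 25.6% were higher and 9.78% lower without overlap. The next bins gave -0.03, -0.10 and -0.15, and the highest (above 55.7%) gave -0.14, with 13.5% higher and 22.2% lower. Set against WT, the typical libraries held the steeper slope. The median deviation of the highest-GC bin minus that of the lowest was 0.62, 0.43 and 0.48 in KO male 2, KO female 1 and KO female 3. It was 0.18, 0.31 and 0.20 in KO male 1, KO male 3 and KO female 2, and -0.07 to 0.08 in WT. Without a filter on low counts the lowest-GC bin gave -0.12, where the median of all genes was -0.24. All 6 KO libraries leaned toward GC-rich transcripts relative to WT, and the divergent ones leaned less. In counts, the lowest-GC bin took 20.2%, 19.1% and 19.3% of the reads in the divergent libraries, 15.97%, 17.3% and 16.9% in the typical ones and 19.97% to 20.9% in WT.

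By length the differences were U-shaped. From the shortest to the longest bin the median log2 difference was 0.08, -0.07, -0.13, -0.13 and -0.03, with edges at 1668, 2563, 3536 and 5028 bases. Both ends held more higher genes: 21.9% of the shortest and 20.2% of the longest bin, against 12.1% of the bin before the longest. The divergent libraries differed here among themselves. The median deviation from WT of the longest minus the shortest bin was -0.35 in KO male 1, 0.08 in KO male 3 and -0.20 in KO female 2. The typical libraries had -0.17, -0.06 and -0.08. The range among WT libraries was wider, with -0.68 in WT male 1, -0.42 in WT male 2 and 0.21 to 0.41 in the other 4. Split by both properties, the longest bin ran from 0.23 in its lowest-GC part (779 genes) to -0.33 in its highest-GC part (285 genes). Within each of the 2 highest-GC bins the median was lower at every step in length, from -0.0020 to -0.28 and from 0.07 to -0.33. The shortest bin ran from 0.20 to 0.07 over the same range. Exon number gave 0.22 for transcripts of a single exon (566 genes) and -0.19 for those of 33 or more exons (530 genes).

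**Figure D3:**
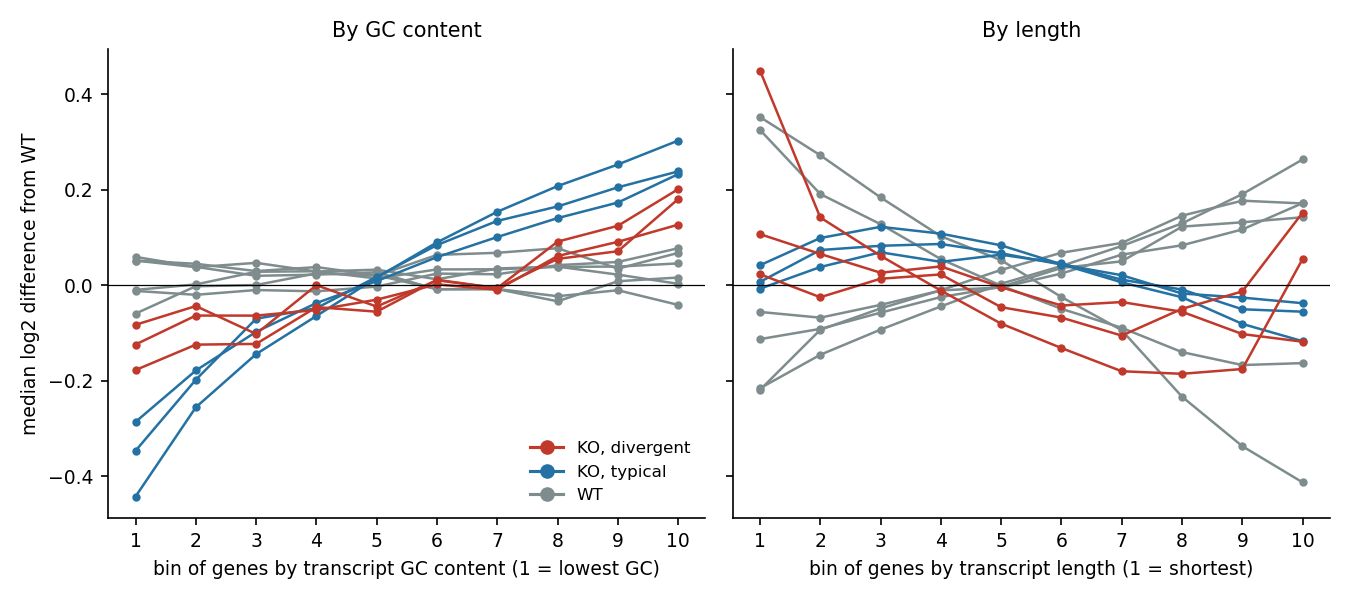
Median log2 difference from the WT mean over the genes of each of 10 equal bins, by transcript GC content (left) and transcript length (right), 1 line per library; each WT library is set against the other 5. By GC content the typical libraries run from -0.44, -0.29 and -0.35 in the lowest bin to 0.30, 0.23 and 0.24 in the highest, the divergent ones less steeply, and by length 2 WT libraries stand apart from the other 4.

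The shares of genes that separated the kinds differed by RNA class. Without overlap, 34.8% of 207 antisense RNAs, 29.4% of 160 lincRNAs and 31.4% of 156 processed transcripts were higher, and 2.42%, 4.38% and 0.641% lower. Among 12351 protein-coding genes the shares were 15.5% higher and 19.2% lower. Of 22 microRNA loci, 12 were higher and none lower. The divergent libraries differed in these classes. The microRNA loci summed to 321, 250 and 178.0 CPM in KO male 1, KO male 3 and KO female 2. The typical libraries had 165 to 191 CPM, so KO female 2 lay within their range. Its median log2 deviation from WT was 0.03 for lincRNAs, against 0.68 in KO male 1, 0.38 in KO male 3 and -0.07 to 0.27 in WT. For antisense RNAs it was 0.32, against 1.03, 0.58 and -0.07 to 0.26. Genes that still carry a provisional name made up 303 of the 669 higher genes with a 2-fold difference: 16.7% of 1817 such genes were among them, against 3.08% of the other 11875. Most genes with a 2-fold difference were low in level: the median over the KO libraries was 4.52 CPM for the 669 and 2.13 CPM for the 413, against 27.9 CPM for all genes.

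Genes inside another gene were grouped by the level of that host gene. Among 142 genes whose host was in the highest of 3 equal bins of host CPM, 35.9% were higher and 3.52% lower. The middle bin gave 34.5% and 8.45%, the lowest bin 20.4% and 10.6%. The other 198 nested genes, whose host was not among the tested genes, gave 22.7% and 14.1%, a higher share than in the lowest bin on both sides, and genes outside any other gene 15.95% and 18.6%. The library kit does not mark strand, so reads of a nested gene and of its host's introns cannot be told apart. Pln, the inhibitor of the calcium pump of the sarcoplasmic reticulum, lies on the opposite strand within Cep85l. It had 13.8, 16.5 and 26.98 CPM in the divergent and 1.15, 2.23 and 1.82 CPM in the typical libraries, with 3.31 to 9.25 CPM in WT. The host, listed under its older symbol Gm9766, had 18.3, 26.5 and 20.5 against 10.1, 13.7 and 8.39 CPM. Fam196b lies opposite to Dock2, a guanine nucleotide exchange factor of lymphocyte migration. It had 51.96, 69.2 and 38.7 CPM against 9.44, 9.85 and 5.47 CPM and 15.3 to 27.3 CPM in WT, while Dock2 itself overlapped with 455, 629 and 574 against 512, 499 and 515 CPM. A nested gene could thus differ 2.70 in log2 units where its host differed 0.11. Pou5f2, within Fam172a on the same strand, had 13.5, 25.5 and 14.5 against 2.23, 4.05 and 2.37 CPM, and its host 167, 153 and 148 against 123, 118 and 116 CPM. Gcnt7, opposite to Rtf2, had 17.9, 32.1 and 17.8 against 4.54, 4.32 and 4.01 CPM, while the host (older symbol 2410001C21Rik) was lower with 148, 146 and 172 against 212, 190.0 and 192 CPM. Mir5111 had the largest difference of the named higher genes, 3.48, with 17.3, 26.2 and 9.33 against 1.08, 1.35 and 2.01 CPM and 3.11 to 8.89 CPM in WT. For Pln, Fam196b and Mir5111 each divergent library was above and each typical library below every WT library.

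**Figure D4:**
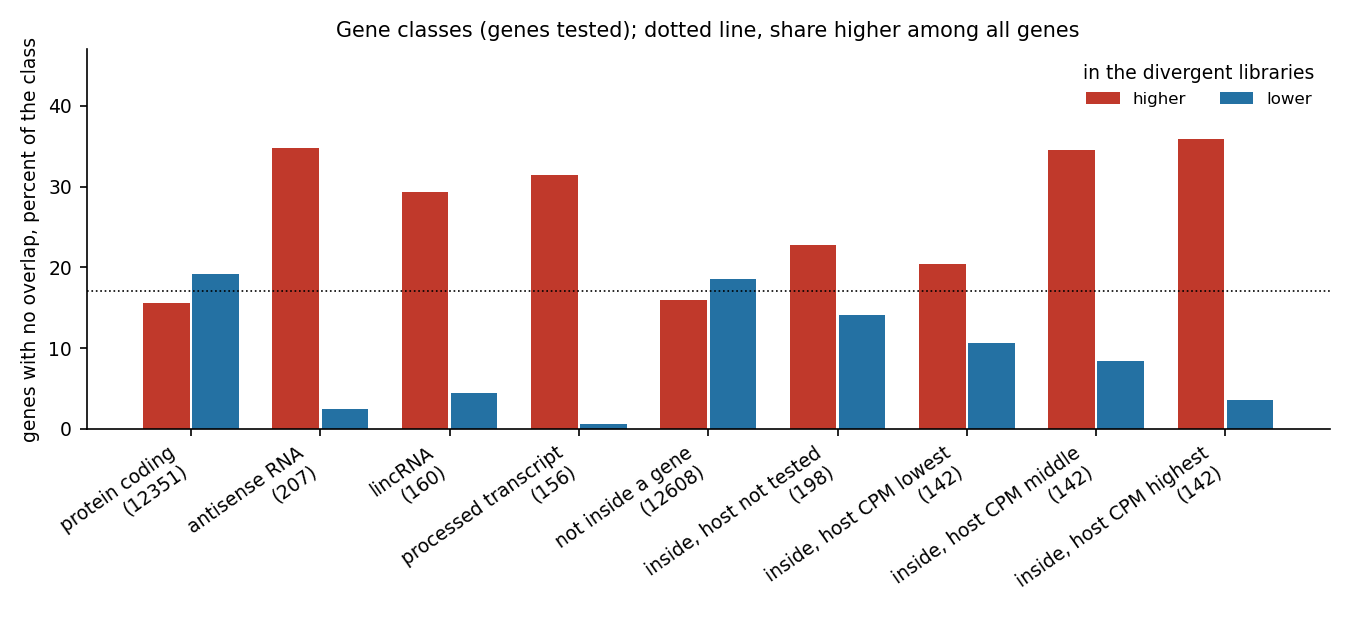
Percent of genes whose divergent libraries lie wholly above (red) or below (blue) the typical ones, by RNA class and by position inside another gene; numbers in brackets are genes tested. Red bars exceed the 17.1% of all genes (dotted line) for antisense RNAs, lincRNAs, processed transcripts and the 4 sets of genes inside a host.

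Several RNAs that stay in the nucleus were higher. Malat1, a noncoding RNA of nuclear speckles, had 11649.8, 8029.7 and 3287 CPM in the divergent and 1664, 2107 and 1842 CPM in the typical libraries, a log2 difference of 1.86. The lowest, median and highest WT library had 2244, 3100.0 and 5161 CPM. KO male 1 and KO male 3 exceeded all WT libraries, KO female 2 lay among them, and the typical libraries were below all of them. Neat1, the scaffold RNA of paraspeckles, had 192, 221 and 139 against 65.2, 74.97 and 86.9 CPM, with 94.05 to 131 CPM in WT. Here each divergent library was above all WT libraries and each typical one below. Kcnq1ot1, an imprinted antisense RNA, had 186, 176 and 139 against 32.4, 55.7 and 35.5 CPM. Of 17 nuclear and long noncoding RNAs listed, 9 were higher and none lower, with a median of 0.53.

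Splicing regulators and chromatin modifiers that separated the kinds were nearly all higher. Of 38 splicing regulators and genes known for detained introns, 24 were higher and none lower (median 0.32). Luc7l3, a splicing factor of the U1 particle, had 130.3, 145 and 110.5 against 54.04, 61.3 and 52.3 CPM. Son, a speckle scaffold, had 626, 707 and 589 against 333, 335 and 321 CPM, and Srrm2, its partner in speckles, 1369, 1832 and 1368 against 885, 928 and 889.7 CPM. WT had 350.3 to 525 CPM of Son, between the kinds, and 939.6 to 1409 CPM of Srrm2, which met the divergent range. Of 41 chromatin modifiers, 20 were higher and 1 lower (median 0.39). The histone methyltransferase Ash1l had 342, 403 and 193 against 106, 115 and 108 CPM and the corepressor Ncor1 654, 745 and 592 against 276, 285 and 292 CPM. Bptf, a reader of the remodelling complex NURF, had 159, 158 and 97.5 against 61.7, 66.3 and 61.1 CPM, and the dioxygenase Tet2 113, 128 and 93.5 against 54.3, 61.1 and 47.7 CPM. The median GC content and length of the transcripts were 44.4% and 3434 bases among the splicing regulators. They were 48.5% and 8862 bases among the chromatin modifiers.

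Very long transcripts went both ways. Of 23 giant scaffold and cytoskeletal genes, 9 were higher and 4 lower. Myo9a, a myosin motor (42.3% GC), had 123, 134 and 57.2 against 36.3, 39.6 and 28.9 CPM. Flna, the actin crosslinker filamin A (54.0% GC), had 630.4, 847 and 888 against 1862, 1679 and 1829 CPM, and Tln1, the integrin activator talin (57.0% GC), 380.1, 598 and 479.6 against 1363, 1295 and 1195 CPM. WT libraries spanned 279.9 to 1416 CPM for Tln1, with WT male 1 below all KO libraries, WT male 2 at 644 CPM and the other 4 at 1248 CPM or more. For Flna WT male 1 was likewise the lowest library, at 461 CPM. Of 26 coiled-coil genes of the centrosome and Golgi, the group of Akap9, 10 were higher and 2 lower. Cep290, a protein of the ciliary base with a transcript of 38.7% GC, had 36.2, 27.1 and 34.3 against 11.2, 11.4 and 11.1 CPM. Its WT range of 23.9 to 30.2 CPM lay above all typical libraries and met KO male 3. Among 25 giant ubiquitin ligases, kinases and related genes, 4 were higher, including the lipid transporters Vps13a and Vps13b, and 3 lower.

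Some partners of the marker genes separated the kinds. Over all genes, 17.1% were higher and 17.8% lower without overlap. In the utrophin-glycoprotein complex 2 of 8 genes were higher, both syntrophins: Sntb1 had 121, 121 and 72.1 against 47.2, 43.4 and 41.1 CPM and Sntb2 21.3, 27.5 and 22.9 against 15.9, 14.8 and 17.8 CPM. Among 13 genes of WNK signalling and chloride cotransport, 3 were higher and 2 lower, near the shares of all genes. The kinase Wnk4 had 7.27, 12.6 and 9.33 against 1.80, 3.58 and 1.82 CPM, and its effector Stk39 70.9, 85.6 and 71.5 against 55.1, 59.4 and 56.1 CPM. The potassium-chloride cotransporters Slc12a4 and Slc12a7 were lower, with differences of -0.55 and -0.44. Of 19 A-kinase anchoring proteins and kinase subunits, 4 were higher and 3 lower, also near the shares of all genes.

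On the lower side stood chaperones, glycolysis and the proteasome. Of 18 heat shock chaperones, 12 were lower and none higher, with a median of -0.70. Hsp90ab1 had 707, 661 and 832 CPM in the divergent and 1678, 1577 and 1478 CPM in the typical libraries, with WT at 995 to 1352 CPM. Hspa8, the constitutive Hsp70, had 617, 485 and 857 against 1479, 1245 and 1370.0 CPM. For Hsp90ab1 all 3 divergent libraries were below and all 3 typical ones above every WT library. Of 17 glycolysis genes 10 were lower and none higher (median -0.60). The lactate dehydrogenase subunit Ldha had 1029, 944 and 1139 against 1981, 1854 and 1754 CPM, and the aldolase Aldoa 312, 282 and 317 against 565, 544 and 579 CPM. Of 38 proteasome subunits 23 were lower and none higher (median -0.33), for example Psmd2 with 269.6, 287 and 451 against 551, 515 and 524 CPM. None of the proteasome differences reached 2-fold. The median GC content and length of the transcripts were 49.6% and 1586 bases in the proteasome list. They were 47.1% and 2885 bases for the chaperones and 53.5% and 3260 bases for glycolysis.

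**Figure D5:**
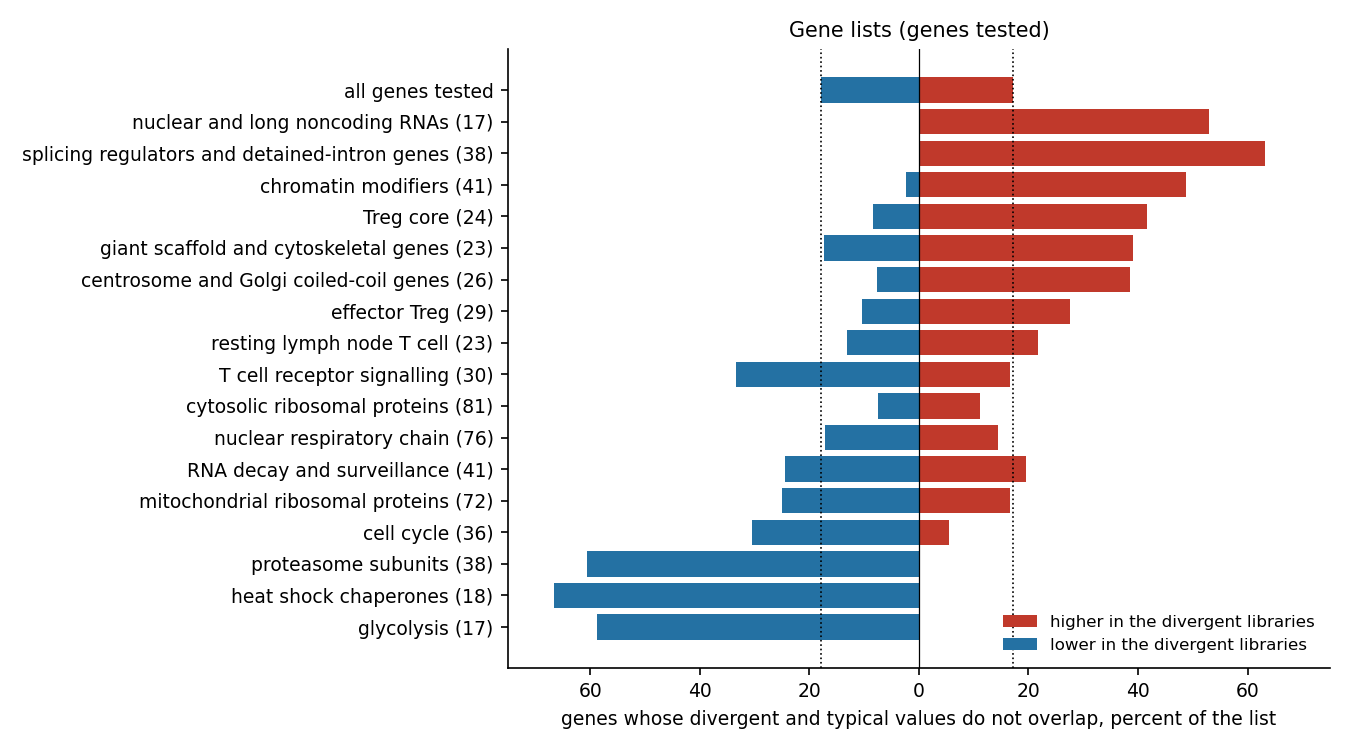
Percent of each gene list whose divergent libraries lie wholly above (red, right) or below (blue, left) the typical ones; numbers in brackets are genes tested and dotted lines the shares among all genes, 17.1% and 17.8%. Splicing regulators (24 of 38 higher) point one way, and heat shock chaperones (12 of 18 lower) and proteasome subunits (23 of 38 lower) the other.

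Several genes of biosynthesis and division were also lower. Fasn, the fatty acid synthase, had 70.9, 93.6 and 115 CPM against 369, 346 and 329.8 CPM, and Cad, which starts pyrimidine synthesis, 51.9, 86.4 and 87.5 against 247, 246 and 202 CPM. Both had WT male 1 as their lowest library, with 64.9 CPM of Fasn and 45.3 CPM of Cad. Of 36 cell cycle genes, 11 were lower and 2 higher. The spindle checkpoint kinase Bub1b had 9.13, 3.30 and 2.57 against 14.4, 11.1 and 18.6 CPM, and the replication helicase subunit Mcm5 71.4, 95.8 and 99.8 against 199, 178 and 179 CPM. The translation factor Eef1a1 had the largest mean difference in CPM on the lower side, with 1787, 1259 and 1379.6 against 2573, 2414 and 2482 CPM. Actg1, a cytoplasmic actin, had 569, 441 and 466 against 1157, 974 and 1069 CPM, while Actb overlapped, with 3224, 2103 and 1904 against 2305, 2162 and 2231 CPM.

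Lists of short abundant transcripts gave no common direction. Of 29 short abundant housekeeping genes, 2 were higher and 6 lower (median -0.10). Among 81 cytosolic ribosomal protein genes 9 were higher and 6 lower (median 0.00), below the shares of all genes on both sides. Nuclear genes of the respiratory chain gave 11 higher and 13 lower of 76. The longer Sdha and Atp5b were lower, at -1.07 and -0.90, and the short Cox7c and Atp5k higher, at 1.06 and 0.94. Mitochondrial ribosomal proteins gave 12 and 18 of 72. B2m, the light chain of MHC class I, had 4351, 3939 and 3297 against 2232, 2196 and 2611 CPM, and Tmsb10, an actin-sequestering thymosin, 415, 272 and 309.7 against 121, 120.2 and 147 CPM. Of 24 replication-dependent histone genes, whose RNAs end without a long poly(A) tail, 6 were higher and none lower. Hist1h2ao had 22.6, 21.4 and 16.9 against 5.91, 5.06 and 5.84 CPM. In lists of longer transcripts, genes of RNA decay (median 3313 bases) gave 8 higher and 10 lower of 41. The helicase Upf1 was at -0.72 and the deadenylase scaffold Cnot1 at -0.79. Zinc finger genes (median 3501.5 bases) gave 43 higher and 49 lower of 306.

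Genes that define regulatory T cells were split as well. Foxp3 had 617, 662 and 583 CPM in the divergent and 917, 895 and 765 CPM in the typical libraries, a difference of -0.47 without overlap. WT spanned 634 to 926 CPM, which met both kinds. Ikzf2, the transcription factor Helios, went the other way, with 445, 476 and 386 against 124, 131 and 98.5 CPM and 239.7 to 361 CPM in WT. The divergent libraries were thus above and the typical ones below every WT library. Bcl2, the survival factor, had 979.6, 1279 and 1032 against 266, 351 and 256 CPM, with 376 to 548 CPM in WT, in the same order. Il2ra, the sorted CD25, overlapped with 671, 992 and 887 against 658, 799 and 544 CPM, and Il7r, the low CD127, was 178, 198 and 190.1 against 143, 162 and 156 CPM. In all, 10 of 24 core genes of regulatory T cells were higher and 2 lower (median 0.32). Of 29 effector genes 8 were higher, among them Maf with 72.1, 66.01 and 53.7 against 21.5, 35.1 and 21.5 CPM, and 3 lower, among them the interferon regulatory factor Irf4 with 54.3, 44.6 and 71.4 against 102, 96.1 and 75.1 CPM. In bulk RNA, fewer cells of a type and less RNA per cell cannot be told apart.

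Signalling genes gave mixed counts. Of 30 genes of T cell receptor signalling 10 were lower and 5 higher. The receptor chain Cd3g, with a transcript of 1023 bases and 47.1% GC, was among the higher ones at 1292, 1199.6 and 1118 against 761, 654 and 777 CPM. Tcf7, a factor of resting T cells, was lower with 539, 469.7 and 507 against 802, 739 and 861 CPM, in a list with 5 higher and 3 lower of 23. Immediate early genes gave 3 higher and 7 lower of 28. Fos had 281, 326 and 252 against 656, 543 and 511 CPM, and WT libraries spanned 26.8 to 808 CPM. Genes of the unfolded protein response gave 6 and 4 of 21, of apoptosis and p53 4 and 6 of 23, of NF-kB 3 and 4 of 17, and of the interferon response 0 and 1 of 29. Th17 genes gave 5 higher and 2 lower of 14, with the receptor Ccr6 at 201, 266 and 168 against 127, 97.8 and 98.4 CPM.

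Most marker lists of other cells overlapped between the kinds. The summed level of 20 B cell genes was 1116 to 1834 CPM in the divergent libraries, 961 to 2278 in the typical ones and 318 to 1164 in WT, and no B cell gene separated the kinds. The 10 plasma cell genes summed to 882 to 1019 CPM against 737 to 810 CPM, with 639 to 751 in WT. Igj, the immunoglobulin J chain, had 238, 231 and 285 CPM against 63.98, 23.2 and 101 CPM and 0.767 to 34.9 CPM in WT. In all, 2 plasma cell genes were higher, Igj and 2010001M09Rik, and 2 were lower, Irf4 and Txndc5. By these values, the plasma cell sums separated the kinds only with Igj included. The 4 epithelial genes summed to 38.0 to 62.9 CPM against 24.4 to 29.0, with 26.9 to 45.4 in WT. Of these 4 genes, 1 was higher and 0 lower, and their median log2 difference was -0.78. The sums overlapped for macrophage and monocyte, dendritic cell, neutrophil and mast cell, stromal and endothelial, erythroid and platelet, thymocyte, and CD8 and NK cell genes. Of 168 markers listed for these cells, 163 were in the deposited table and 122 passed the filter, among them only 4 of 12 epithelial, 3 of 12 erythroid and platelet, 9 of 20 stromal and endothelial and 11 of 20 neutrophil and mast cell genes. Before the filter, the globin gene Hba-a2 alone of the 163 had no read in any of the 6 KO libraries. C1qc, a complement gene of macrophages, was lower with 4.93, 1.16 and 4.71 against 9.51, 9.72 and 12.04 CPM, in a list of 21 with 2 higher and 5 lower. The part of these cells in the split was not tested.

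The comparison of KO with WT titles depended on which KO libraries entered. With all 12 libraries, edgeR's quasi-likelihood test called 206 genes at an adjusted p under 0.05 (1.5%), of which 83 (0.606%) rose and 123 (0.898%) fell in KO. DESeq2 called 647, and leaving out any 1 library gave 12 to 551 with edgeR, 12 without KO female 3 and 551 without KO male 2. Without the divergent libraries edgeR called 1169 (8.54%), 450 higher (3.29%) and 719 lower (5.25%). Without the typical libraries it called 636 (4.65%), 316 higher (2.31%) and 320 lower (2.34%). Libraries were removed by their correlation over these same values, which bears on the spread in each smaller fit by construction, so the counts of the smaller fits are descriptions and their p-values are not given. These fits share the WT libraries, and each leaves a titled sex with a single KO library, which is assumed to vary like the other groups. Y-linked reads were present in WT male 1, WT male 2, WT male 3 and WT female 2, but among KO libraries only in KO male 3 and KO female 1. By these genes, averaging over titled sexes does not balance the sexes, and KO minus WT is partly confounded with sex.

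Utrn had a log2 difference, KO minus WT, of 0.25 (SE 0.21, adjusted p = 0.611) with all libraries. It was -0.40 (SE 0.10) without the divergent libraries and 0.46 (SE 0.11) without the typical ones. Bcl2 was 0.63 (SE 0.35, adjusted p = 0.408) with all libraries, -0.61 (SE 0.14) without the divergent and 1.31 (SE 0.13) without the typical ones. Hsp90ab1 was 0.01 (SE 0.22, adjusted p = 0.983), 0.50 (SE 0.10) and -0.59 (SE 0.11) in the same order. Each of these 3 genes lay on opposite sides of WT in the smaller fits and did not pass with all libraries. Ikzf2 was -1.28 (SE 0.16) without the divergent libraries and 0.53 (SE 0.14) without the typical ones. The libraries were chosen on these values, so the directions are not independent evidence.

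Some other KO minus WT differences kept their direction in all 3 fits. Of 20 B cell genes, 11 rose in KO with all libraries and none fell, and the median log2 difference of the 20 was 1.90, 1.72 without the divergent and 1.87 without the typical libraries. Over all genes it was 0.02, -0.0014 and -0.04 in that order. The B cell genes also varied among the WT libraries, which the 3 fits share. Their median log2 deviation from the other WT libraries was 2.69 in WT female 1 and 1.75 in WT female 2. It was -0.42, -1.69, -1.22 and -0.44 in WT male 1 to 3 and WT female 3. The KO libraries, set against WT, had 1.70 to 2.87. The summed B cell level of WT female 1, 1164 CPM, lay within the KO range of 961 to 2278 CPM. Cd74, the invariant chain of MHC class II, was 1.38 (SE 0.26, adjusted p = 0.0244) with all libraries, 1.22 (SE 0.34) without the divergent and 1.39 (SE 0.28) without the typical ones. Actb was -0.61 (SE 0.13, adjusted p = 0.0362), -0.64 (SE 0.12) and -0.64 (SE 0.17) in that order. Of 23 genes of resting lymph node T cells, 5 rose with all libraries and none fell, with medians of 0.32, 0.31 and 0.42 in the 3 fits. For 41 chromatin modifiers none was called with all libraries, and the median was -0.06, -0.23 without the divergent and 0.09 without the typical libraries.

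Between KO female and KO male, edgeR called no gene (0.0%), with 722 at an unadjusted p under 0.05, and DESeq2 called 0, with 887 unadjusted. The count stayed at 0 without the divergent libraries (102 unadjusted) and without the typical ones (1750 unadjusted). Without KO male 2, which left only divergent libraries titled KO male, it was 318. By the Y-linked genes and Xist, each titled sex of KO held 2 libraries with Xist and 1 with Y-linked reads, so these counts compare titles and are no comparison of the sexes.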

How the data were processed

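RNA-seq was measured in 12 libraries of sorted mouse regulatory T cells. The authors deposited a table of raw read counts per gene symbol for 26609 genes, and log2 values of the same libraries. Per the submitters' processing notes, HISAT2 2.0.5, featureCounts 1.5.0-p2 and edgeR were used with build GRCm38. No source used here gives the annotation or says whether counting used strand. NucleoSpin XS, SMART-Seq v4 and Nextera XT served for RNA, cDNA and libraries, per the labels' protocols, and these kits do not mark strand. Column names were matched to sample titles.

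Counts were filtered with filterByExpr (13692 genes left), scaled by TMM in edgeR 4.0.16 (R 4.3.3, limma 3.58.1) and written as log2 CPM with a prior count of 0.25. The counts, not the deposited log2 values, gave all main results. The KO libraries were split 3 against 3 by mean correlation. A gene was higher or lower where the kinds did not overlap, and 2-fold calls also needed a mean log2 difference of at least 1. Length and GC content came from a GENCODE M21 transcript of each gene, and position from the gene, matched by symbol (96.6% of genes, 1140 by an older symbol). The transcript was the longest, with those of the basic set and then protein-coding ones taken first. KO minus WT, averaged over titled sexes, and KO female minus KO male were tested on counts over 4 groups. The test was edgeR's quasi-likelihood test, with Benjamini-Hochberg adjustment over all genes. This test reports no SE. The SE printed is the absolute log2 difference divided by the square root of the test's F statistic. In the smaller fits it has the same limits as their p-values. On simulated counts the KO minus WT fit was run on 13692 genes. It recovered 66 of 100 genes changed 2-fold and 88 of 100 changed 4-fold, and called 5 unchanged genes. The simulation drew each gene independently and changed no gene of the lowest levels. It held no slope by GC content and no split among KO libraries. It therefore checks the code and does not give the power or the false calls in these data. Alternatives were DESeq2 1.42.0, other scalings, no filter, another prior count, a replicate block and left-out libraries.

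Named genes were Utrn, Wnk1, Akap9, Esr2, Foxp3, Il2ra, Il7r, Malat1, Neat1 and Actb, the 15 largest 2-fold differences in each direction at a mean of at least 5 CPM (no provisional names or antigen receptor segments), the 6 largest CPM differences in each direction, and up to 4 members of each of 42 gene lists. Not all are printed, and host genes were added. The members, lists and rules were chosen with earlier results of these data known. Same-numbered libraries were not paired: of 18 pairs, deviations from the group means correlated at -0.21 to 0.13, and 1 pair exceeded 0.1. Depth was 10200506 to 16748380 counts, and 3 counts correspond to 0.179 to 0.294 CPM.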

Additional observations from a re-analysis of the deposited data

How the results depend on the processing

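The choice of the 3 divergent libraries was the same in all 4 alternatives. Of the 2-fold calls, 669 higher and 413 lower, a 1.5-fold limit gave 1378 and 1152, and no filter gave 746 higher and 1365 lower. Leaving out 1 KO library gave 673 to 1098 higher (highest without KO female 2) and 491 to 803 lower, with 803 without KO male 1, 635 without KO male 3 and 719 without KO female 2. Fewer libraries overlap less by construction. The longest transcripts gave -0.20 without a filter, where all genes gave -0.24, and 0.23, -0.28 and -0.33 within the lowest and the 2 highest GC bins. The lowest-GC transcripts, 0.13, reversed to -0.12 without a filter, still above that median of all genes. They gave 0.18 with library size only, 0.20, 0.084, 0.094, 0.073 and 0.23 within the length bins, and 0.10 to 0.17 with 1 KO library left out. KO minus WT, 206 genes, gave 647 with DESeq2, 627 without a filter, 1169 without the divergent and 636 without the typical libraries. Leaving out 1 library gave 12 (without KO female 3) to 551 (without KO male 2), and also 25, 23, 57, 41 and 25 without WT male 2, WT male 3, WT female 1, WT female 2 and WT female 3, 84 without KO male 3 and 50 without KO female 1. With the title number as a replicate block it gave 9, and KO female minus KO male gave 0; the numbers do not pair the libraries. KO female minus KO male, 0 genes, gave 63 without a filter, and 0 to 318 with 1 library left out (318 without KO male 2). The cause was not tested. Depth limits genes near 3 counts, and the 2-fold calls are mostly of low genes.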

Other observations

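Of 3 ribosomal RNA loci, 2 differed between the kinds by more than 2-fold on average, with values that varied within the divergent libraries. Rnr2 had 2725, 1451 and 709 CPM in KO male 1, KO male 3 and KO female 2, against 432, 614 and 375 CPM in KO male 2, KO female 1 and KO female 3, and 542 to 1178 CPM in WT. Rnr1 had 377, 155 and 50.1 against 37.97, 46.9 and 20.98 CPM and 55.04 to 189 CPM in WT. In both of these, KO male 1 was the highest of all 12 libraries and KO female 2 lay within the WT range or below it. The symbols had no match in the annotation, so the loci are named as the deposited table names them. Rn45s, the most abundant of the 3, overlapped, with 5650, 3672 and 2049 against 2732, 2613 and 1856 CPM and 1165 to 2571 CPM in WT. Lars2, the mitochondrial leucyl-tRNA synthetase, had 5508, 3518 and 3573 against 3030.2, 2904 and 3116 CPM and 2003 to 3596 CPM in WT.

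A few inducible and lineage genes were lower in the divergent libraries. Tnfaip3, the feedback inhibitor of NF-kB, had 138, 169 and 188 against 432, 453 and 473 CPM, and Dusp1, a phosphatase of stress kinases, 388, 512 and 569 against 840.4, 736 and 769.6 CPM. WT libraries spanned 197 to 941 CPM of Tnfaip3 and 140.2 to 1100.4 CPM of Dusp1, wider than the KO libraries of either kind. Eomes, a transcription factor of cytotoxic lymphocytes, had 9.21, 2.14 and 5.82 against 16.1, 15.4 and 16.2 CPM. Of the 15 genes of CD8 and NK cells, Eomes and Klrb1c were lower and Nkg7 and Xcl1 higher. Klf16, a transcription factor with a transcript of 60.4% GC, had 7.43, 8.44 and 6.42 against 20.5, 25.6 and 19.9 CPM, with 8.31 to 12.5 CPM in WT, so each typical library was above every WT library. Among 8 GIMAP GTPases of lymphocyte survival, Gimap8 and Gimap9 were higher, at 0.35 and 0.34, and Gimap5 lower, at -0.39. Of the other higher genes, Scarf1, a scavenger receptor, had 9.70, 13.6 and 7.28 against 1.80, 1.96 and 1.55 CPM and 1.39 to 4.50 CPM in WT.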
